A study of Mus musculus with 6 samples.

Results

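The genes described are 10 genes that are grouped here, and named below, as readers of N6-methyladenosine (m6A), the most common internal modification of messenger RNA. They are Ythdf1, Ythdf2, Ythdf3, Ythdc1 and Ythdc2 of the YTH family, Igf2bp1, Igf2bp2 and Igf2bp3 of the IGF2BP family, and the RNA-binding protein genes Fmr1 and Elavl1. They were chosen by gene symbol, and all 10 are among the 24421 genes listed in the count tables and the 15906 genes tested. RNA-seq had been done on 6 libraries from oligodendrocyte progenitor cells (OPCs) of the mouse, the proliferating precursors of the cells that wrap axons in myelin. The control group (3 libraries) had the genotype Prrc2bf/f, in which Prrc2b carries floxed alleles and no Cre is present. The knockout group (3 libraries) had the genotype Prrc2bf/f; Olig2-Cre, in which Cre is driven from Olig2, a gene that is active in the oligodendrocyte lineage but need not be limited to it. All cells came from the cortex of C57BL/6J pups at postnatal day 4. They were selected on antibody-coated dishes (GalC, then O4) and kept in a proliferation medium with the growth factors PDGF-AA and bFGF, although the series' design text speaks of brain tissue. Both groups carry the floxed alleles and no library carries Olig2-Cre alone, so an effect of the Cre and one of Prrc2b loss cannot be told apart. Nothing in the labels ties the replicates to separate animals or cultures, and p-values then measure only the spread between these libraries, which may be technical.

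A methyl group on adenosine is placed in the nucleus by a writer complex around METTL3 and METTL14 and can be removed by FTO and ALKBH5. Reader proteins bind the mark or the RNA around it and set what becomes of the transcript. YTH proteins hold the methylated base directly in an aromatic pocket, and those of the cytoplasm are best known for handing transcripts to deadenylation and decay. IGF2BP proteins are best known for the opposite outcome, stabilising their targets, and IGF2BP1 and IGF2BP3 are made mainly in fetal tissue. In OPCs the m6A machinery has been linked to differentiation and myelination, and PRRC2A, a relative of the targeted PRRC2B, has itself been described as an m6A reader there.

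Each library held between 26015604 and 28114968 counts in genes. Levels are given as CPM, each count divided by the library's total in genes and scaled to a common size, after TMM scaling, which adjusts library totals for differences in composition, and at this depth 1 count was worth 0.0356 to 0.0384 CPM. Prrc2b stood at 925 to 1111 CPM among controls and at 649 to 824 CPM among knockouts, with every knockout library below every control library. Its log2 fold change was -0.41 (edgeR adjusted p = 1.00, SE 0.13), and with the replicate number in the model it fell by 0.41 (edgeR adjusted p = 0.00688, SE 0.06). In that model the knockout to control ratio was 0.750 (95% interval 0.689 to 0.818), so most Prrc2b counts remained in the knockout libraries. These counts are per gene and not per exon, so the ratio does not give the share of intact Prrc2b transcripts. The 12 OPC markers summed to 2831 to 4751 CPM among controls and 2805 to 5526 CPM among knockouts, and none was at a count of 0 in any library. Ptprz1 was the largest part, with means of 1974 and 2241 CPM. With the replicate number in the model, 0 of the 12 had an edgeR adjusted p under 0.05, and their median log2 fold change was -0.01. The lowest was Olig2, from which the Cre is driven, at -0.50 (edgeR adjusted p = 0.0533). Its means were 235 CPM among controls and 184 CPM among knockouts. Transcripts of other cells were present in both groups. The 14 neuronal markers summed to 4008 to 5612 and 3491 to 5131 CPM, the 10 astrocyte markers to 1440 to 2582 and 1681 to 3048 CPM, and the 12 pericyte and fibroblast markers to 179 to 859 and 235 to 1237 CPM. In such bulk samples, fewer cells of a type and less RNA per cell cannot be told apart.

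None of the 10 reader genes differed between knockout and control libraries beyond the spread between libraries. The edgeR quasi-likelihood test called 0 of 10 at an adjusted p under 0.05, against a background of 0.00% of all 15906 tested genes, and 0 of 10 had an unadjusted p under 0.05 (smallest 0.359). DESeq2 and limma-voom also called 0 of 10. Libraries with the same replicate number deviated together from their group means, so the same model was also fitted with that number as a block. The block lets 3.80% of all tested genes be called (604 genes, 1.57% higher and 2.23% lower), and it still called 0 of 10 readers, with a smallest edgeR adjusted p of 0.292 and 0 of 10 at an unadjusted p under 0.05. The groups overlapped for all 10 genes, where 6.34% of tested genes had groups that did not overlap. The median log2 fold change of the 10 genes with the block was 0.01, beside 0.00 over all tested genes, and their median absolute log2 fold change was 0.07, beside 0.11.

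**Figure D1:**
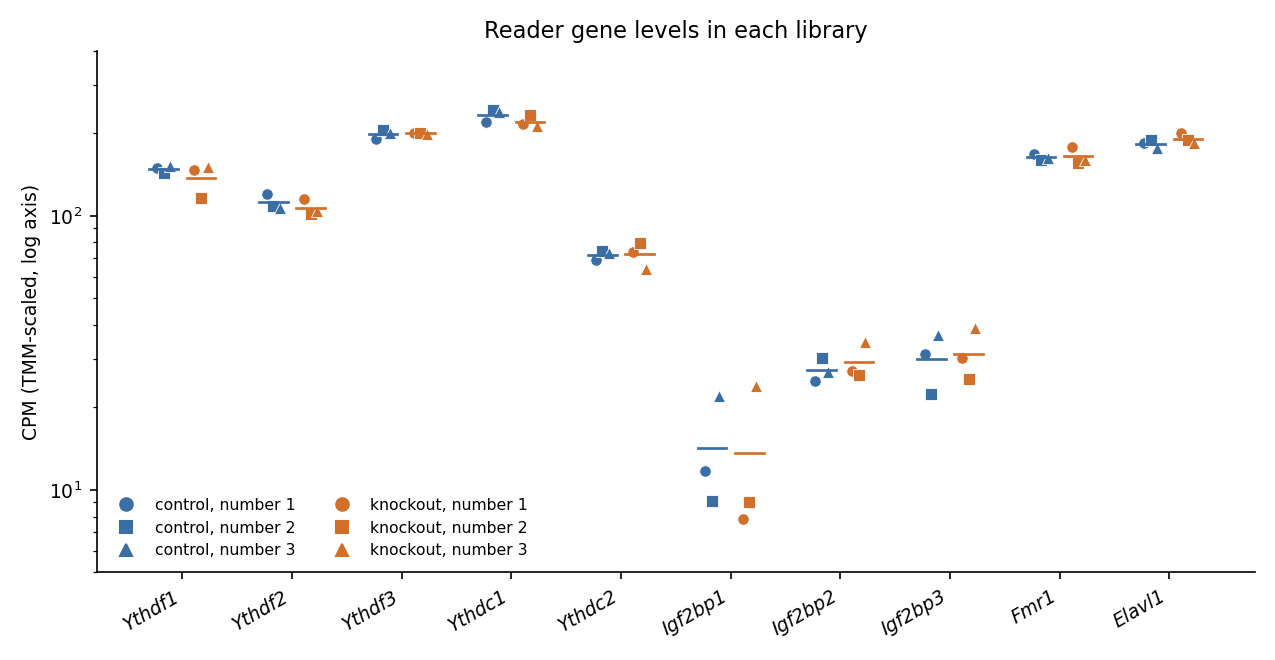
Level of each reader gene in CPM after TMM scaling (log axis) in the 3 control and 3 knockout libraries, with the symbol giving the replicate number and the bar the group mean. The groups overlap for every gene, and the 2 libraries numbered 3 sit apart for Igf2bp1.

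The size of change that these libraries leave possible differed between the families. With the block, the 95% intervals of the knockout to control ratio of the 7 genes outside the IGF2BP family lay between 0.842 and 1.12. Those of the 3 IGF2BP genes lay between 0.721 and 1.27. The intervals without the block were wider for each of the 10 genes, and for Igf2bp1 the log2 fold change had an interval from -1.32 to 1.19. A p that misses the threshold does not show that the levels were the same. These intervals give the changes that the fit left possible, not the smallest change that would have been called.

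**Figure D2:**
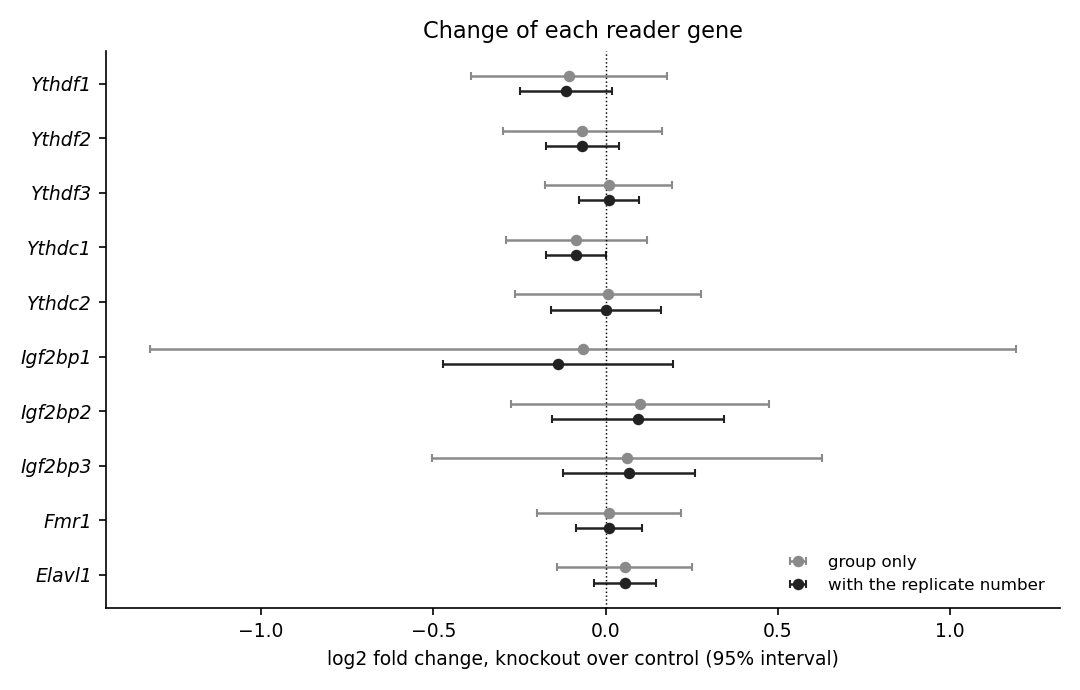
Log2 fold change of each reader gene, knockout over control, with its 95% interval, in the model with group only (grey) and in the model with the replicate number as a block (black). All 20 intervals include 0, and the interval of Igf2bp1 without the block is the widest.

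The cytoplasmic YTH proteins YTHDF1, YTHDF2 and YTHDF3 are close paralogs that share targets. YTHDF2 is the member best known for recruiting the CCR4-NOT deadenylase, and YTHDF1 was described as a promoter of translation. Ythdf1 stood at 149, 143 and 153 CPM in control libraries 1, 2 and 3 and at 146, 116 and 151 CPM in the knockout libraries. Knockout library 2 was the lowest, and the other 5 libraries lay within 143 to 153 CPM. The log2 fold change was -0.11 (edgeR adjusted p = 1.00, SE 0.12), and -0.11 (edgeR adjusted p = 0.356, SE 0.06) with the block. Without knockout library 2 it was 0.00.

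Ythdf2 stood at 120, 109 and 107 CPM among controls and at 115, 102 and 104 CPM among knockouts. Each knockout library was below its same-numbered control library, and the groups overlapped. The blocked log2 fold change was -0.07 (edgeR adjusted p = 0.508, SE 0.05). Ythdf3 was the steadiest of the 10 genes, at 191, 206 and 200 CPM among controls and 201, 200 and 199 CPM among knockouts. The knockout libraries lay inside the range of the control libraries, and the blocked log2 fold change was 0.01 (edgeR adjusted p = 0.931, SE 0.04). Summed per kb of exon, the 3 paralogs reached 106 ± 0.810 CPM per kb among controls and 102 ± 6.59 CPM per kb among knockouts (SD, n = 3). Of that sum Ythdf1 made up 42.1% ± 1.08 and 40.5% ± 3.16, Ythdf3 34.9% ± 1.58 and 36.6% ± 2.46, and Ythdf2 23.0% ± 1.41 and 22.9% ± 1.13. The share of Ythdf3 was higher in the knockout in all 3 pairs, at 33.3% and 35.1%, 36.4% and 39.4%, and 34.9% and 35.2% in control and knockout of numbers 1, 2 and 3, and the shares were not tested.

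The other pair of YTH genes encodes proteins of different build. YTHDC1 is the nuclear reader, which acts on splicing and export, and YTHDC2 is an RNA helicase known mainly from meiosis. Ythdc1 had the highest CPM of the 10 genes, at 221, 242 and 239 CPM among controls and 216, 234 and 213 CPM among knockouts. Knockout library 2 exceeded control library 1, so the groups overlapped, but each knockout library was below its same-numbered control library. The blocked log2 fold change of -0.08 (edgeR adjusted p = 0.292, SE 0.04) was the nearest of the 10 to the threshold, with an interval from -0.17 to 0.00. When the pair numbered 3 was left out it was -0.04 (edgeR adjusted p = 0.800). Ythdc2 stood at 68.8, 74.5 and 73.3 CPM among controls and at 74.0, 79.7 and 63.9 CPM among knockouts. It was higher in 2 pairs and lower in the third, and its blocked log2 fold change was 0.00 (edgeR adjusted p = 0.988, SE 0.07). Ythdf1, Ythdf2 and Ythdc1, 3 of the 10 readers, were lower in the knockout in all 3 pairs, where 20.9% of tested genes were. The number higher in all 3 pairs was 0 of 10, against 19.6%.

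The IGF2BP genes were the lowest of the readers and the least steady across libraries. IGF2BP1 also binds the zipcode of beta-actin mRNA, and the 3 proteins share targets such as the growth factor mRNA Igf2. Igf2bp1 stood at 11.7, 9.08 and 21.9 CPM in control libraries 1, 2 and 3 and at 7.86, 9.04 and 24.0 CPM in the knockout libraries. Both libraries numbered 3 were high and the other 4 were low, whatever the group. The log2 fold change was -0.07 (edgeR adjusted p = 1.00, SE 0.52), and -0.14 (edgeR adjusted p = 0.688, SE 0.15) with the block. Its sign depended on single libraries: it was 0.39 without control library 3 and -0.76 without knockout library 3, with adjusted p near 1 in both.

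Igf2bp3 followed the same order of numbers in both groups, at 31.2, 22.4 and 36.7 CPM among controls and 30.2, 25.3 and 38.8 CPM among knockouts. The libraries numbered 2 were the lowest and those numbered 3 the highest. Its blocked log2 fold change was 0.07 (edgeR adjusted p = 0.735, SE 0.08). Igf2bp2 stood at 25.0, 30.2 and 27.0 CPM among controls and at 27.2, 26.4 and 34.7 CPM among knockouts, with no order of numbers common to both groups. Its blocked log2 fold change was 0.09 (edgeR adjusted p = 0.718, SE 0.11). Summed per kb of exon, the family reached 8.87 ± 1.38 CPM per kb among controls and 9.23 ± 2.34 CPM per kb among knockouts (SD, n = 3).

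A sequence that sets the IGF2BP genes apart from the other readers is the match to the let-7 microRNAs, which are known to repress fetal growth genes as tissues mature. The microRNAs themselves were not analysed here. The seed shared by the family (bases 2 to 8, in capitals) is shown in let-7a, and a target site carries its reverse complement, CTACCTC, searched on the transcript strand in the 3′ UTR of the longest coding transcript that has one. The fragments below show 1 such match per gene in capitals, for the IGF2BP genes and for Lin28b and Hmga2, which are textbook let-7 targets. Where a gene held more than 1, the first match followed by an A was chosen. The mature sequence is from RefSeq (GRCm38.p6), and the sites are from GENCODE M21 transcripts (GRCm38), all on the minus strand.
let-7a-5p: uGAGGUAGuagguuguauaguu
Igf2bp1, chr11:95961771-95961800: gctgtgcgaagtaaaCTACCTCaaggtgtg
Igf2bp2, chr16:22059466-22059495: acacacaaataaaagCTACCTCaggtgttt
Igf2bp3, chr6:49086780-49086809: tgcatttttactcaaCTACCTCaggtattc
Lin28b, chr10:45381015-45381044: acccgggcgggaagtCTACCTCatgcaagc
Hmga2, chr10:120364217-120364246: gccgacattcaatttCTACCTCagcatcag

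The 6337-base 3′ UTR of Igf2bp1 held 4 matches, and those of Igf2bp2 (1784 bases) and Igf2bp3 (2119 bases) held 1 each. The 7 other readers held 0, among them Elavl1 with 4218 bases and Ythdf3 with 3059. Lin28b and Hmga2 held 4 each. An A followed 3 of the 4 matches in Igf2bp1, the 1 match in Igf2bp2 and in Igf2bp3, and 1 of the 4 in Lin28b and in Hmga2. Among 14475 tested genes with an annotated 3′ UTR, 10.5% held at least 1 match and 0.173% held at least 3. Of those with a 3′ UTR of at least 2000 bases, 20.4% held at least 1 and 0.551% at least 3. A match is a run of letters and was not tested as a site in these cells.

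The pattern of Igf2bp1 across replicate numbers was shared by some of the fetal growth transcripts, a list that holds Lin28a, Lin28b, Hmga1, Hmga2, Igf2, H19, Myc, Actb and Cd44. Lin28b, which encodes the protein that blocks let-7 maturation, stood at 0.849, 1.07 and 5.41 CPM among controls and at 0.473, 1.49 and 4.23 CPM among knockouts. H19, the imprinted non-coding neighbour of Igf2, stood at 46.6, 20.2 and 65.2 CPM and at 37.5, 21.0 and 99.4 CPM. Both were highest in the libraries numbered 3 in each group. Hmga2, a chromatin protein gene of fetal progenitors, went another way and was highest in the libraries numbered 1, at 11.4, 1.18 and 7.67 CPM among controls and 11.8, 1.96 and 5.17 CPM among knockouts. Myc was also highest in those numbered 1, at 93.4, 33.5 and 59.8 CPM among controls and 104, 33.3 and 58.4 CPM among knockouts. Of the 8 list members tested, 4 (Lin28b, Igf2, H19 and Cd44) had both libraries numbered 3 above the other 4, where 19.5% of tested genes did. Of the readers 3 did, Igf2bp1, Igf2bp3 and Ythdf1. Markers of mesenchymal cells moved with the number as well: 9 of 12 pericyte and fibroblast markers had both libraries numbered 3 highest, and the summed level of that list was 859 and 1237 CPM there against 179 to 464 CPM in the other 4 libraries. None of the 12 was at a count of 0 in any library. The sum of the 9 choroid plexus and ependymal markers was 1882 and 2758 CPM against 358 to 1025 CPM. Most of it was Ttr, at a mean of 761 CPM among controls and 1350.5 CPM among knockouts, where the sums averaged 889 and 1537 CPM. Of these 9 markers, 4 (Ttr, Folr1, Kl and Clic6) had both libraries numbered 3 highest. Both libraries numbered 3 were highest for 0 of 12 OPC, 1 of 10 microglia and macrophage and 2 of 10 astrocyte markers. The same held for 2 of 11 endothelial and 3 of 14 neuronal markers. The microglia and macrophage markers summed to 23.8 CPM in each library numbered 1, against 200 to 290 CPM in the other 4. The part of any of these cell types in the levels of Igf2bp1 and Igf2bp3 was not tested.

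**Figure D3:**
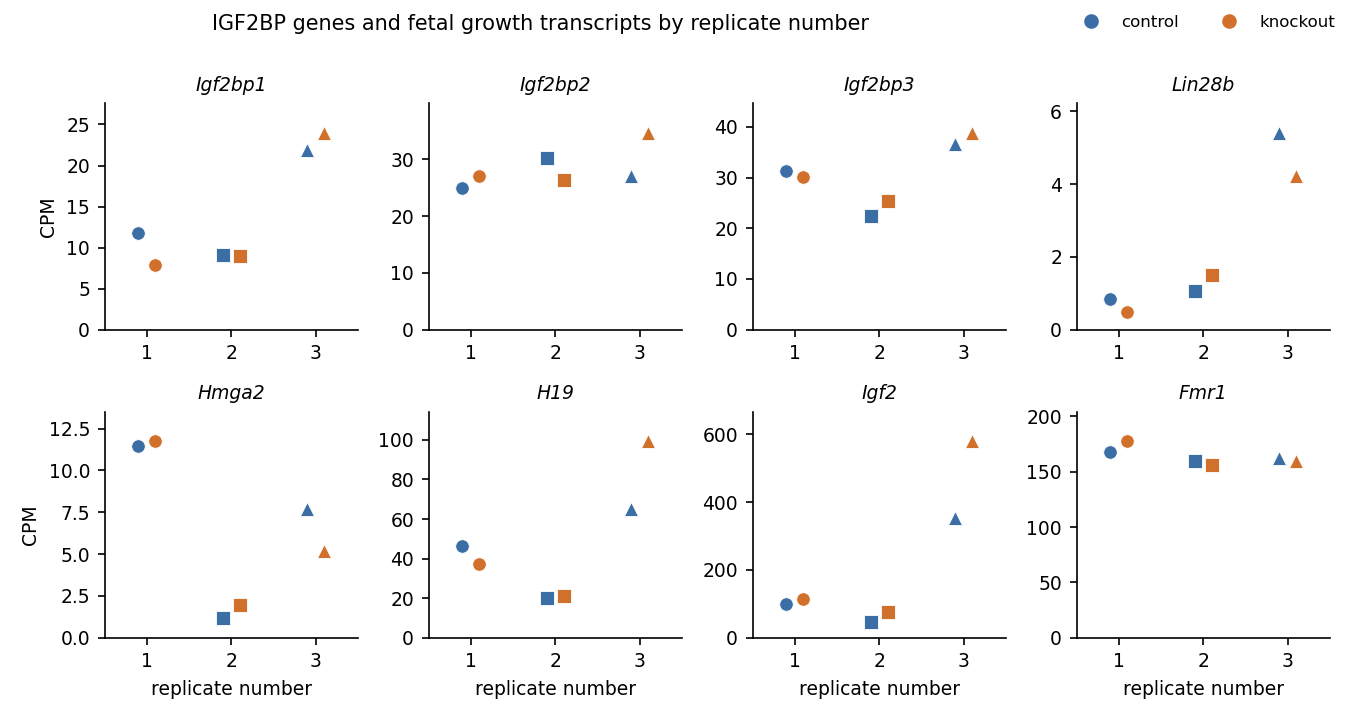
CPM of the IGF2BP genes, 4 fetal growth transcripts and Fmr1 for comparison, by replicate number (horizontal axis) and group (colour), with each vertical axis starting at 0. Igf2bp1, Igf2bp3, Lin28b, H19 and Igf2 are highest in both libraries numbered 3, Hmga2 is highest in those numbered 1, and Fmr1 lies between 156 and 178 CPM in the 6 libraries.

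The replicate number itself was tested in the blocked model, a test chosen after these values were seen. It called 3 of the 10 readers, where 51.2% of all tested genes were called. Igf2bp1 (edgeR adjusted p = 0.000275) and Igf2bp3 (edgeR adjusted p = 0.00175) passed, and Ythdf1 did so narrowly (edgeR adjusted p = 0.0470). Without the pair numbered 3, Igf2bp1 no longer passed (edgeR adjusted p = 0.770) while Igf2bp3 did (0.0375). Ythdf1 did not pass without the pair numbered 2 (0.635) or 3 (0.0605), with DESeq2 size factors (0.0546) or with the DESeq2 test (0.0620). With GC correction 4 readers were called, where 51.3% of all tested genes were, and the fourth was Fmr1 (edgeR adjusted p = 0.0154, against 0.123 without the correction). The means of the replicate numbers spanned 1.34 on the log2 scale for Igf2bp1 and 0.67 for Igf2bp3, against a median of 0.45 over all tested genes. For the other 8 readers that span was 0.05 (Ythdf3) to 0.23 (Ythdf1 and Igf2bp2), which put each of them in the lowest 23.4% of tested genes.

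Fmr1 encodes FMRP, the protein lost in fragile X syndrome, which represses translation of bound mRNAs and has been described to prefer methylated transcripts. Fmr1 stood at 168, 160 and 162 CPM among controls and at 178, 156 and 160 CPM among knockouts. The knockout libraries held both the highest and the lowest value, and the blocked log2 fold change was 0.01 (edgeR adjusted p = 0.938, SE 0.04). Fxr1 and Fxr2 are its paralogs. Fxr1 was at 138 ± 14.5 CPM among controls and 140 ± 12.9 CPM among knockouts (SD, n = 3; blocked log2 fold change 0.02, edgeR adjusted p = 0.903, SE 0.04). Fxr2 stood at 245, 241 and 193 CPM among controls and 200, 212 and 168 CPM among knockouts, so that each knockout library was below its same-numbered control while the groups overlapped. With the block Fxr2 fell by 0.23 (edgeR adjusted p = 0.0157, SE 0.04), without it the log2 fold change was -0.23 (edgeR adjusted p = 1.00, SE 0.14). The call was lost after correction for transcript GC content (edgeR adjusted p = 0.0616, at -0.16) and when the pair numbered 3 was left out (0.0739). Whether Fxr2 differed from Fmr1 in its response was not tested.

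Elavl1 encodes HuR, a widely made protein that binds AU-rich elements and stabilises mRNAs, often beside m6A readers. It stood at 185, 189 and 176 CPM among controls and at 200, 188 and 184 CPM among knockouts. The groups overlapped, and the blocked log2 fold change was 0.06 (edgeR adjusted p = 0.523, SE 0.04). Of its neuronal relatives, Elavl3 fell with the block by 0.28 (edgeR adjusted p = 0.00705, SE 0.04), from 441, 605 and 436 CPM in control to 358, 504 and 361 CPM among knockouts. That call held in all 12 fits with the block, and the edgeR adjusted p without the block was 1.00. Elavl2 (blocked log2 fold change -0.14, SE 0.06) and Elavl4 (-0.11, SE 0.04) did not pass, at edgeR adjusted p of 0.275 and 0.207. Of the 14 neuronal markers, 4 were lower with the block and 0 higher, where 2.23% of all tested genes were lower and 1.57% higher. None of the 14 was at a count of 0 in any library. The part of neuronal cells in the Elavl3 values was not tested.

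Levels can be compared between genes only per length. Per kb of all annotated exons, Ythdf1 was the highest reader at 44.7 ± 1.43 CPM per kb in control libraries (SD, n = 3), followed by Ythdf3 at 37.1 ± 1.42 and Ythdf2 at 24.5 ± 1.59. Fmr1 (18.2 ± 0.453), Elavl1 (17.7 ± 0.643) and Ythdc1 (17.1 ± 0.869) came next. Fmr1 was above Ythdc1 in each of the 6 libraries, while Elavl1 was above each of the other two in some libraries and below it in others. Ythdc2 followed at 8.13 ± 0.340 CPM per kb. Igf2bp2 (3.70 ± 0.353) and Igf2bp3 (3.69 ± 0.885) overlapped, and Igf2bp1 was the lowest at 1.47 ± 0.700. Among 15791 tested genes with a length, Ythdf1 lay at percentile 94.2 of CPM per kb, Ythdf3 at 92.7, Ythdc2 at 59.1, Igf2bp2 at 40.6 and Igf2bp1 at 23.8. The middle of this order depends on which length is used. The annotated exons of Ythdc1, Fmr1 and Elavl1 cover 13651, 8966 and 10363 bases, and their longest transcripts 6313, 4409 and 5743 bases. For Ythdf2 these lengths are 4572 and 4129 bases. With the length of the longest transcript, Fmr1 (37.1 ± 0.922 CPM per kb), Ythdc1 (37.1 ± 1.88) and Elavl1 (32.0 ± 1.16) stood above Ythdf2 (27.1 ± 1.76), while Ythdf1 stayed first and Igf2bp1 last.

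**Figure D4:**
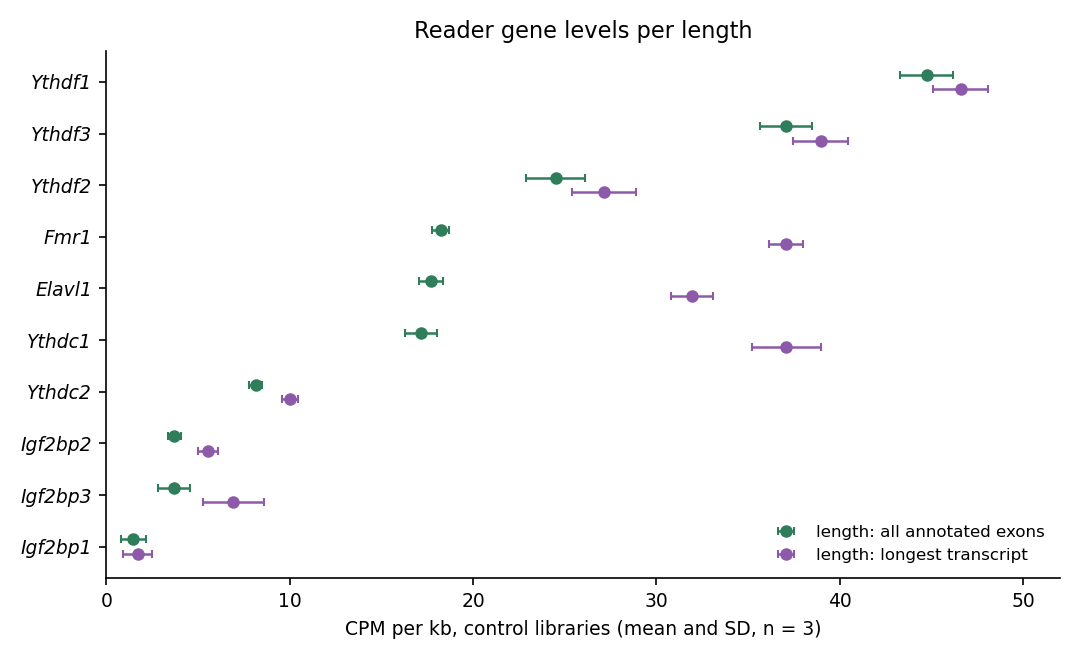
Mean level of each reader gene in the 3 control libraries in CPM per kb, with the SD, using the length of all annotated exons (green) or of the longest transcript (purple). Fmr1, Elavl1 and Ythdc1 lie below Ythdf2 with the first length and above it with the second, and the IGF2BP genes are lowest with both.

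The reader genes lie on 10 different chromosomes of GRCm38 (mm10). Igf2bp1 (ENSMUSG00000013415.9) spans 95957163 to 96005940 on chromosome 11, minus strand, and Igf2bp3 (ENSMUSG00000029814.10) spans 49085223 to 49214957 on chromosome 6, minus strand. Ythdc1 (ENSMUSG00000035851.14) spans 86804221 to 86836659 on chromosome 5, plus strand, and Ythdf1 (ENSMUSG00000038848.14) spans 180904377 to 180920949 on chromosome 2, minus strand. Igf2bp3 overlaps Malsu1 on the opposite strand (174 to 267 counts per library), and Elavl1 overlaps Ccl25 on the opposite strand (109 to 167 counts). These overlaps are of whole gene spans, and whether the pairs share exons was not examined. No source used here gives the strand setting of the counting, so any reads in shared exons cannot be assigned with certainty. The core of the m6A consensus, GGACT on the transcript strand, occurred 0.196 (Ythdf3) to 1.43 (Ythdc1) times per kb in the longest transcripts of the readers, beside a median of 1.04 over tested genes. Ythdc1, Ythdf2 (1.21) and Igf2bp1 (1.19) were above that median and the other 7 readers below it. Methylation itself was not analysed here.

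The genes whose levels followed those of a reader most closely were found by the root mean square difference of log2 CPM, each gene centred on its mean over the 6 libraries, among 10264 genes of a mean of at least 10 CPM whose symbols are not those of predicted or RIKEN clone genes. Nearest to Igf2bp1 were Adgrl2 (0.153), Mmp17 (0.164) and Ryr1 (0.166), and nearest to Igf2bp3 were Pde8b (0.0283), Crim1 (0.0295) and Gyg (0.0338). Nearest to Ythdf2 were Atrn (0.00587), Clint1 and Las1l, and nearest to Elavl1 were Cbl (0.0101) and Dpf3. Fmr1 was followed most closely by Smu1, Son and Nup153, and Ythdc1 by Phf14, Luc7l2 and Farp1. Jtb, Ranbp17 and Rhob were nearest to Ythdf1, Cfl1, Cdc42 and Zscan21 to Ythdf3, Tmem60 and Abhd10 to Ythdc2, and Pgap2, Litaf and Zbtb10 to Igf2bp2. With 6 libraries and 10264 genes searched, close matches arise for any profile, and the distances are descriptions of these libraries. They were not scaled by the reader's own spread, so a reader that hardly varied has small distances. The SD of log2 CPM over the 6 libraries was 0.0358 for Ythdf3, 0.061 for Elavl1, 0.0667 for Fmr1, 0.305 for Igf2bp3 and 0.697 for Igf2bp1.

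Most of the other genes of the pathway did not pass either. Without the block 0 genes of any of 7 lists were called (edgeR adjusted p). With the block, 2.23% of all tested genes fell and 1.57% rose. Of 15 m6A writers and erasers 1 fell and 0 rose, with a median log2 fold change of -0.09. That gene was Rbm15b, an adaptor that brings the writer complex to RNA, at 157, 152 and 138 CPM among controls and 137, 128 and 122 CPM among knockouts. All knockout libraries lay below all control libraries, as in 3.60% of tested genes, and the blocked log2 fold change was -0.21 (edgeR adjusted p = 0.0320, SE 0.04). Its call was held in 6 of the 12 fits with the block, and was lost with library totals (edgeR adjusted p = 0.0531), with upper quartile scaling (0.0518), after GC correction (0.0562) and without the pair numbered 1 (0.0774), 2 (0.0891) or 3 (0.122). Mettl3, the catalytic subunit, was at 38.2 ± 5.18 and 37.2 ± 8.09 CPM (SD, n = 3), and the next genes by p, Trmt112 and Wtap, had blocked edgeR adjusted p of 0.179 and 0.184.

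Of 23 genes of deadenylation and decay, the machinery that YTHDF2 hands its targets to, 0 passed with the block, against 3.80% of tested genes. The median log2 fold change of the 23 was -0.03. The nearest were Cnot9 (listed as Rqcd1), Cnot8 and Cnot6l, subunits of CCR4-NOT, at blocked edgeR adjusted p of 0.231, 0.263 and 0.284. Of 10 nuclear splicing and export partners of YTHDC1, 1 fell and 0 rose, where 2.23% of tested genes fell and 1.57% rose. Alyref, an adaptor of mRNA export, went from 77.8, 76.3 and 57.4 CPM in control to 63.3, 59.8 and 49.9 CPM among knockouts, a blocked log2 fold change of -0.28 (edgeR adjusted p = 0.0339, SE 0.06). The groups overlapped, and the call was lost with library totals (edgeR adjusted p = 0.0528) and without the pair numbered 1 (0.125), 2 (0.142) or 3 (0.0680). Of 10 FMRP relatives and granule partners Fxr2 alone passed, and of 13 other proposed readers and ELAV relatives Elavl3 alone, both as given above. Of 6 partners of the IGF2BP complex 0 passed, with Ybx1, Hnrnpu and Pabpc1 nearest at blocked log2 fold changes of -0.15, -0.15 and -0.07.

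Among the fetal growth transcripts, 2 of 8 tested rose with the block and 0 fell, where 1.57% of all tested genes rose and 2.23% fell. The median log2 fold change of the list was 0.07. Igf2, the fetal growth factor whose mRNA gave the IGF2BP proteins their name, stood at 101, 47.3 and 354 CPM among controls and at 114, 77.2 and 580 CPM among knockouts. Each knockout library was above its same-numbered control, and the difference between numbers was larger than that between groups. The blocked log2 fold change was 0.53 (edgeR adjusted p = 0.0158, SE 0.09), and the unblocked one was 0.62 (edgeR adjusted p = 1.00, SE 0.97). The call was lost with DESeq2 (adjusted p = 0.0535) and when the pair numbered 3 was left out of the edgeR fit (adjusted p = 0.107). Without knockout library 3 the unblocked log2 fold change was -0.81. Cd44, a hyaluronan receptor and known IGF2BP target, stood at 34.4, 24.7 and 47.4 CPM among controls and 38.7, 37.1 and 66.7 CPM among knockouts. Its blocked log2 fold change was 0.42 (edgeR adjusted p = 0.0381, SE 0.09), and the call was lost without the pair numbered 2 (edgeR adjusted p = 0.112) or 3 (0.186), among genes of at least 5 CPM (0.0502) and after GC correction (0.0611). Actb, the zipcode target, did not pass (blocked log2 fold change 0.11, edgeR adjusted p = 0.316, SE 0.05). Markers of some other cell types moved the same way as Igf2, but not those of every type. With the block 8 of 11 endothelial and 6 of 9 choroid plexus and ependymal markers rose. So did 4 of 10 astrocyte (Gfap, Aqp4, Slc1a2 and Gja1) and 2 of 12 pericyte and fibroblast markers. In these 4 lists 0 markers fell. By contrast, 0 of 10 microglia and macrophage markers passed (median blocked log2 fold change 0.04). The neuronal list went the other way, with 4 of 14 lower and 0 higher (median -0.16). The endothelial markers summed to 21.2 to 98.5 CPM among controls and 47.4 to 318 CPM among knockouts, and the choroid plexus and ependymal markers to 358 to 1882 and 829 to 2758 CPM. None of these markers was at a count of 0 in any library, and their part in the Igf2 and Cd44 values was not tested.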

How the data were processed

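The deposited files hold whole-number counts per gene symbol, not normalised, in 3 libraries of each group. Poly(A) RNA was sequenced in pairs after a dUTP second strand, per the labels' protocols. The submitters' processing notes name the mm10 build, DESeq2 1.26.0, HTSeq 0.12.4 and HISAT2 2.2.1 without their roles. The strand setting and the annotation of the counting are not given in those sources. The 5 summary entries of each file, 27.7% to 29.3% of pairs in control and 30.0% to 31.1% in knockout libraries, were left out of library sizes. 

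Counts were scaled by TMM, filtered with filterByExpr and fitted with edgeR 4.0.16 (R 4.3.3), whose quasi-likelihood F test was used with group as the only term and Benjamini-Hochberg adjustment over 15906 genes. Standard errors were taken as the log2 fold change over the root of F, and 95% intervals from the matching t distribution. Same-numbered libraries deviated together from their group means (r = 0.712, 0.682 and 0.654), and the replicate number was therefore taken to pair them and was added as a block (4 residual degrees of freedom without it, 2 with it). The pairing comes from the data, as the labels do not say what a number marks. CPM per kb used union exon lengths of GENCODE M21. Longest-transcript lengths and the test between replicate numbers were added after seeing the data. Alternatives were other scalings, filters, DESeq2 1.42.0, limma-voom (limma 3.58.1), left-out libraries and a GC correction in 20 bins. The members were taken by symbol, and the text names them, Prrc2b, up to 3 genes per list by blocked p and the 3 nearest profiles per member. This set of members, the lists and this rule were chosen with earlier results of these data known. Of the nearest profiles, 2 are not reported here. Other genes named with values were chosen after their values were seen. Virma, Cnot9 and Rida were found under older symbols.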

Additional observations from a re-analysis of the deposited data

How the results depend on the processing

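Each reader was refitted under 25 alternatives, and 0 of the 10 were called in any. Ythdf2, Ythdc1 and Elavl1 kept their direction in all 25, and Ythdc1 went from -0.104 to -0.040 over the left-out pairs. With the block and no filter on low counts Ythdc2 was at -0.0019, and with the block and GC correction Ythdf3 was at -0.014, Ythdc2 at -0.023 and Fmr1 at -0.014. When 1 library was left out, the log2 fold change ranged from -0.176 to 0.00088 for Ythdf1, -0.018 to 0.033 for Ythdf3, -0.067 to 0.089 for Ythdc2, -0.756 to 0.392 for Igf2bp1, -0.036 to 0.174 for Igf2bp2, -0.119 to 0.233 for Igf2bp3, -0.049 to 0.046 for Fmr1 and -0.814 to 1.80 for Igf2. When 1 pair was left out of the fit with the block, it ranged from -0.017 to 0.034 for Ythdf3, -0.046 to 0.104 for Ythdc2 (-0.042 without the pair numbered 1), -0.290 to 0.0735 for Igf2bp1, -0.037 to 0.239 for Igf2bp2 and -0.020 to 0.030 for Fmr1. None of the values on either side of these changes of sign passed, except those of Igf2 with the block, and the cause was not tested. Over all genes 0 were called (274 at an unadjusted p under 0.05), 20 with DESeq2 and 0 with limma-voom. With the replicate block 604 were called, 573 with DESeq2 size factors, 502 with library totals (54.0% higher, against 41.4%), 536 with upper quartile scaling (53.9% higher), 1034 with no filter, 435 at a mean of at least 5 CPM, 680 with DESeq2, 712 with limma-voom, 388 with GC correction (51.5% higher) and 444, 521 and 174 without the pair numbered 1, 2 and 3. The pairing moved the count of called genes from 0 to 1 in the writers and erasers, in the splicing and export partners, in the FMRP relatives and in the other proposed readers, and from 0 to 2 in the fetal growth transcripts. Readers called between replicate numbers were 3 (51.2% of all genes), 4 with GC correction (51.3%), and 3, 2 and 1 without the pair numbered 1, 2 and 3 (40.7%, 36.4% and 30.3%). Igf2bp1 had the fewest counts, 216 to 635 per library.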
